A study of Mus musculus with 6 samples.

Results

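The 50 genes described here act in G2 and mitosis. They were taken by symbol from a fixed list, all 50 were found among the 23358 genes of the deposited table, and all 50 were abundant enough to test. They were followed in 6 RNA-seq libraries of mouse calvaria, the bones that roof the skull, taken at 2 to 3 days of age. The bones had been digested for 20 minutes in collagenase type II at 2 mg/ml with trypsin at 0.005% before they were frozen. In 3 libraries the genotype label is a conditional knockout of Ezh2 (cKO) and in 3 it is wild type (WT). Osx stands in both labels too; it is the former symbol for Sp7, which osteoblast precursors need to mature. The labels do not say which transgene the name stands for, whether the WT animals carry it, or whether each library is 1 animal. The labels number the WT libraries 14, 27 and 29 and the cKO libraries 8, 10 and 37.

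Cells commit to mitosis when cyclin B and Cdk1 become active. The chromosomes then condense, attach through their kinetochores to the spindle and are held by the spindle checkpoint until all are attached. The anaphase-promoting complex (APC/C), a ubiquitin ligase, next marks securin and cyclin B for destruction, and the central spindle and a contractile ring divide the cell. Most genes of this programme are transcribed late in the cell cycle and kept silent in resting cells, so in growing bone their RNA is known to follow the dividing cells. Ezh2 is the catalytic subunit of Polycomb repressive complex PRC2 and is itself more abundant in dividing cells.

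Many G2/M promoters hold a CHR element (cell cycle genes homology region), the site of the MuvB complexes that act with FoxM1 and B-Myb, and CCAAT boxes, the sites of NF-Y. RefSeq start sites on GRCm38.p6, the assembly that mm10 names, matched 41 of the 50 genes, with 250 bases before and 50 after the start. The start lay within 100 bases of the start in the deposited table for 38 of the 41. A CHR, searched as TTTGAA or TTTAAA on both strands, was present in 32 of 41 (78%), against 24.5% of 15711 promoters of the same length. A CCAAT, searched on both strands, was present in 30 of 41 (73.2%) against 39.0%. Both were present in 26 of 41 (63.4%) against 9.97%, and matches to the 2 motifs were allowed to overlap. A CHR between 60 bases before and 50 after the start was found in 27 of 41 (65.9%) against 7.36%. These are descriptions of letters in a window, not of bound sites.

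The 150 bases before the start are shown for 8 genes as examples of each outcome below: Ube2c, Prc1 and Rangap1, which were lower in cKO, G2e3 and Gas2l3, which were higher, and Ccnb1, Cdk1 and Top2a, which did not pass the test. Capitals mark CHR and CCAAT matches on either strand. In the order shown the windows are chr2:164769779-164769928 (plus strand), chr7:80294326-80294475 (plus strand), chr15:81729920-81730069 (minus strand), chr12:51348080-51348229 (plus strand), chr10:89443968-89444117 (minus strand), chr13:100786487-100786636 (minus strand), chr10:69352913-69353062 (minus strand) and chr11:99024190-99024339 (minus strand).
Ube2c: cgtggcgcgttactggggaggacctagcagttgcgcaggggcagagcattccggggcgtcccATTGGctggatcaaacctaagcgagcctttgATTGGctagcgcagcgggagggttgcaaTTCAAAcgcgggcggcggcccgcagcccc
Prc1: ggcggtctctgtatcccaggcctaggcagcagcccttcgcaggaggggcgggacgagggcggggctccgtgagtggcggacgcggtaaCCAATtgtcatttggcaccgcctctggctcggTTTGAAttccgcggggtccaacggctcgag
Rangap1: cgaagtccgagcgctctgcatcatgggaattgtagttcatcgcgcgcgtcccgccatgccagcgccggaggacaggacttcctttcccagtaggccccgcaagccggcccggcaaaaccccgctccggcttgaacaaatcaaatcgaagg
G2e3: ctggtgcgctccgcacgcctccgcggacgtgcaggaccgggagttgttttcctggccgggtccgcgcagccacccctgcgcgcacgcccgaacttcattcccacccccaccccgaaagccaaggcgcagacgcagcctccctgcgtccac
Gas2l3: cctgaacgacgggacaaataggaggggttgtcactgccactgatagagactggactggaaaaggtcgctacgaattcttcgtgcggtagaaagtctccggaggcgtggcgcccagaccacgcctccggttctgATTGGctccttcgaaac
Ccnb1: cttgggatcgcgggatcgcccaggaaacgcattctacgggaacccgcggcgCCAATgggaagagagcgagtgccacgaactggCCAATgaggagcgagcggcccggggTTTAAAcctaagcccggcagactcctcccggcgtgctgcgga
Cdk1: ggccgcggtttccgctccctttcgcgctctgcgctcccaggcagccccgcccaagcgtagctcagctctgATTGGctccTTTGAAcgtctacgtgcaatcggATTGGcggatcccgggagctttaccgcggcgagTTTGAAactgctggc
Top2a: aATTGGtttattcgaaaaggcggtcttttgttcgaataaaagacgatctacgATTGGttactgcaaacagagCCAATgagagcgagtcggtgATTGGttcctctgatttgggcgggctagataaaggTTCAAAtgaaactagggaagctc
In Ube2c the CHR begins 29 bases before the start and in Prc1 30 bases before it. Cdk1 has a pair of CHR matches here, beginning 71 and 15 bases before the start. Rangap1 has no match in these 150 bases, and its CHR begins at base 17 after the start. In G2e3 neither motif was found in the whole window, and Gas2l3 has a CCAAT 17 bases before the start and no CHR in these letters. Of the 5 lower genes with a promoter, 5 hold a CHR, of the 2 higher ones 0, and of the 34 that did not pass 27, numbers too small to set the groups apart.

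**Figure D1:**
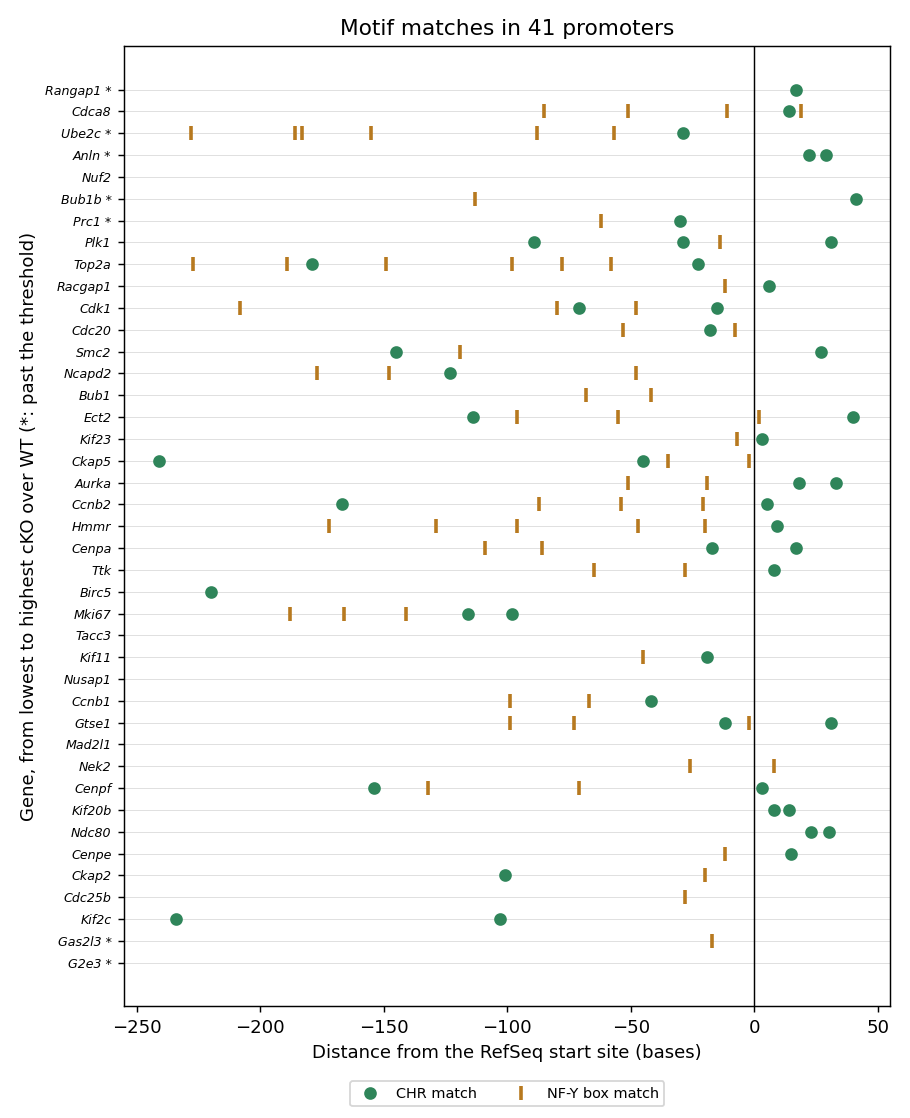
Positions of CHR matches (green points) and NF-Y box matches (brown ticks) in 41 promoters, by distance in bases from the RefSeq start site (0). Genes run from the lowest to the highest cKO over WT difference and an asterisk marks those past the threshold. CHR matches lie between 60 bases before and 50 after the start in 27 genes, and 9 genes have none in the window, Nuf2, Bub1, Tacc3, Nusap1, Mad2l1, Nek2, Cdc25b, Gas2l3 and G2e3.

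Gene counts summed to between 60449016 and 95439578 per library, and the 50 genes had from 422 to 16796 counts each. Ezh2 itself was at 20.7, 21.7 and 20.4 CPM (counts scaled to library size by TMM) in WT 14, WT 27 and WT 29 and at 19.2, 20.6 and 19.8 in cKO 8, cKO 10 and cKO 37, and the deleted part is not given, so this checks no label. Osteoblast markers were abundant in every library, with 9 of 9 detected and a summed level of 98600 to 179000 CPM. Of the 9, 1 was lower in cKO, Sp7 (-0.37 ± 0.09, SE, adjusted p = 0.0211), against 6.45% of all tested genes. Every p-value rests on how far these libraries scatter, and technical scatter may be included. In bulk bone, fewer dividing cells and less RNA per cell cannot be told apart.

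One library stood apart in these genes. In cKO 37, 46 of 50 members (92%) lay below the mean of cKO 8 and cKO 10, against 49.8% of 10276 genes at least as abundant as the lowest member. The median shortfall was -0.13 on the log2 scale, against 0.0008 for those genes. It was the lowest of all 6 libraries for 30 of 50 members (60%), against 20.5% of all tested genes. The largest shortfalls were in Cdca8 (-0.51), Aurkb (-0.46), Ncapd2 (-0.44), Plk1 (-0.43) and Incenp (-0.38), named after their values were seen. The same library had the lowest summed osteoblast markers, 98600 CPM against 119000 and 134000 in cKO 10 and cKO 8. Most of that sum was Col1a1 (44400 CPM) and Col1a2 (45400 CPM). Of the 9 markers, Runx2, Col1a1, Col1a2 and Alpl were lowest in cKO 37 and Spp1 was highest there. Sp7, Ibsp, Bglap and Dmp1 were neither. The cKO 37 library also had the lowest summed cartilage markers, 705 CPM over 5 genes. Those sums were 5430 and 6040 in cKO 8 and cKO 10 and 2120 to 7640 in WT. Their part in the shortfall was not tested. Across the 50 members the shortfall was larger in genes of higher GC content (Spearman rho -0.438, genes that share the library). The rho was -0.183 over 10202 of the 10276 genes, those with a GC value. For the 50 members, each call that changed without cKO 37 is therefore given below. Differences of members that passed neither with nor without it are given for all 6 libraries only and may depend on that library.

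**Figure D2:**
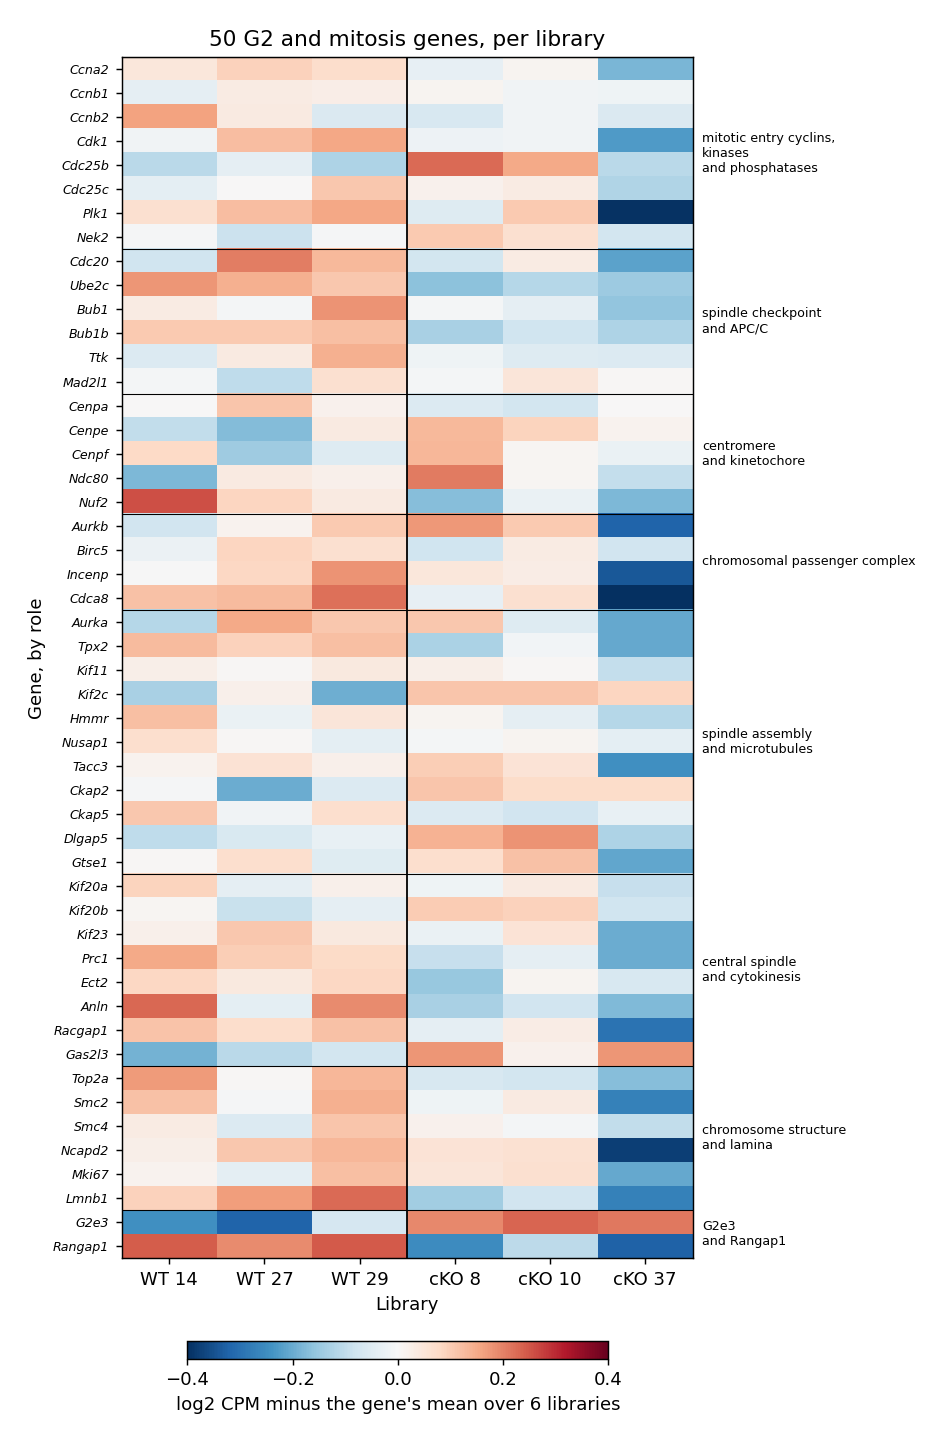
Log2 CPM of the 50 genes (rows, by role) in each library (columns), minus the gene's mean over the 6 libraries, with blue below and red above it. The column of cKO 37 is blue in most rows, being the lowest of the 6 for 30 genes, whereas cKO 8 and cKO 10 are mixed.

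Compared with WT, 7 of the 50 genes fell in cKO, 2 rose and 41 did not pass. Those that fell were Rangap1, Lmnb1, Ube2c, Anln, Tpx2, Bub1b and Prc1, and those that rose were G2e3 and Gas2l3. The test was edgeR's quasi-likelihood F test with Benjamini-Hochberg adjustment over 16089 genes and a threshold of 0.05, and 12.4% of those genes passed it. That compares with 18% of the members. Lower calls made up 14% of members against 6.45% of all genes, and higher calls 4% against 5.96%. At an unadjusted p under 0.05 there were 17 members (34%) against 29.1% of all genes. The median log2 fold change, cKO over WT throughout, was -0.09 for the members against 0.01 for all tested genes, and 38 of 50 members (76%) lay below 0 against 48.7%.

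All differences were small. No member reached 1.5-fold, and the 95% confidence interval excluded a 1.5-fold difference in either direction for 49 of 50 members, against 66.4% of all genes. The exception was Rangap1, whose interval ran from -0.60 to -0.30 on the log2 scale. All 3 libraries of 1 group lay above all 3 of the other for 21 members (42%), against 34.6% of all genes. In 17 of those 21 the cKO libraries were the lower ones. Leaving out cKO 37 gave 3 lower members of 50 (Rangap1, Lmnb1 and Ube2c) and 2 higher (G2e3 and Cdc25b). Of all genes in that fit 6.48% were lower and 5.73% higher. The members were then not called lower more often than other genes, unlike with all 6 libraries (14% against 6.45%). Their median was -0.05 and 34 of 50 lay below 0, against 49.6% of all genes. Leaving out WT 14 left 2 lower, WT 27 and cKO 10 4 each, and WT 29 and cKO 8 1 each. Lower calls over all genes shrank too, from 6.45% to 3.43% without WT 14, 3.74% without WT 27 and 4.54% without cKO 10. The share was 2.36% without WT 29 and 1.81% without cKO 8, so a member's lost call went with a general loss. Bub1b missed the threshold without any 1 of the 6 libraries, with adjusted p from 0.0518 to 0.112, and Ube2c without any but cKO 37 (0.0576 to 0.106). Tpx2, Prc1 and Gas2l3 kept their calls when cKO 10 was left out but not for any other library, and Anln when WT 27 was.

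**Figure D3:**
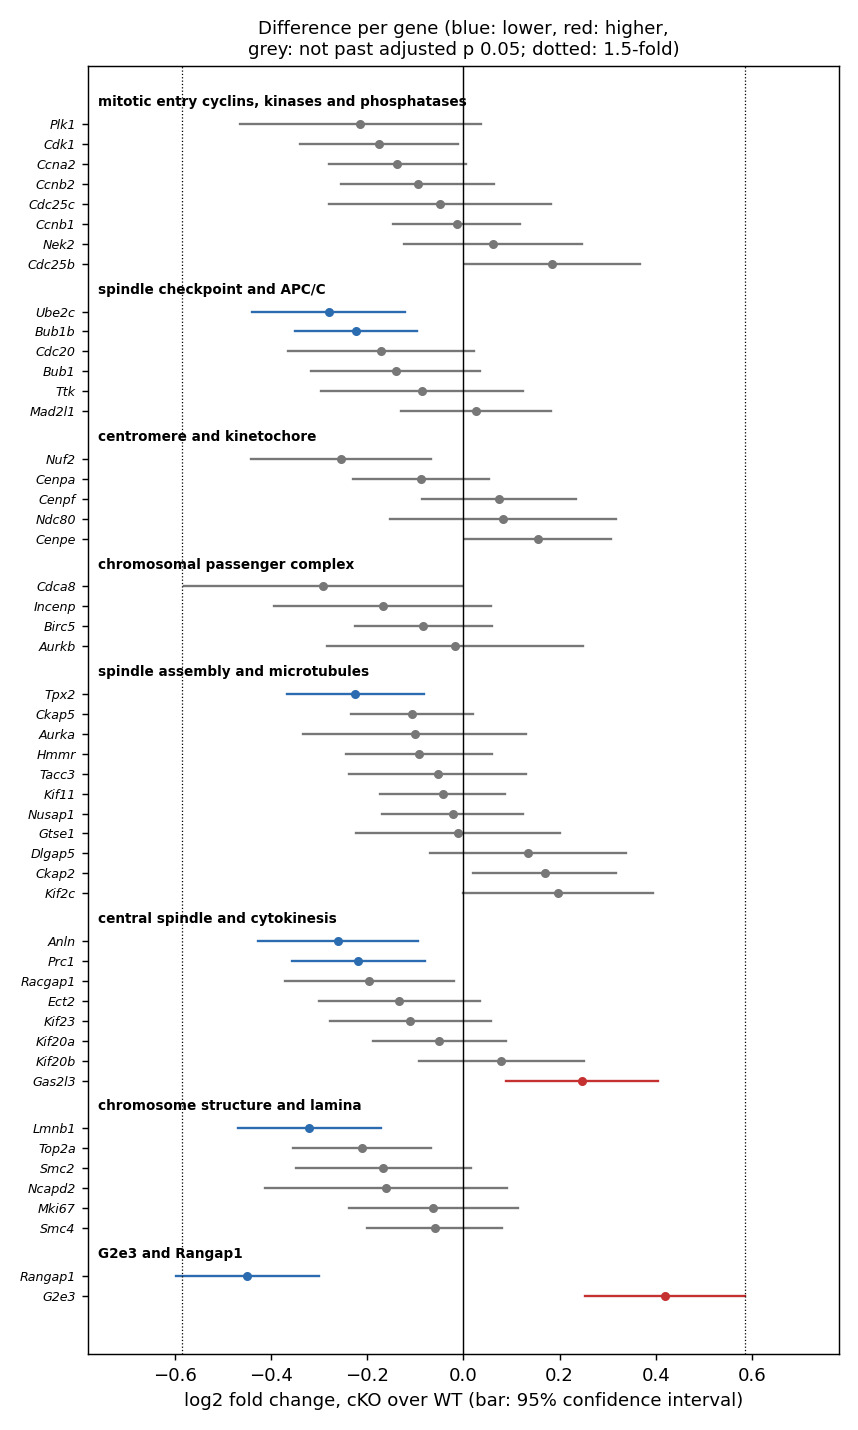
Log2 fold change of each of the 50 genes, cKO over WT (points), with its 95% confidence interval (bars), ordered within role groups. The 7 lower (blue) and 2 higher (red) genes passed the threshold, and only the interval of Rangap1 crosses a dotted line at 1.5-fold.

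Genes that start mitosis had differences from -0.21 (Plk1) to 0.18 (Cdc25b), with a median of -0.07. Of 8 cyclins, kinases and phosphatases of mitotic entry, 0 rose, 0 fell and 8 did not pass with edgeR (0% called against 12.4% of all tested genes). Of these 8, 2 had an unadjusted p under 0.05, against 29.1% of all tested genes. DESeq2 and limma voom called none of those reported here either (Ccna2, Ccnb1, Ccnb2 and Cdk1). Ccnb1, cyclin B1, was at 25.0, 26.2 and 26.1 CPM in WT 14, WT 27 and WT 29 and at 25.8, 25.4 and 25.3 in cKO 8, cKO 10 and cKO 37. The groups overlap, and the interval of the log2 difference was -0.15 to 0.12. Its kinase partner Cdk1 was at 36.4, 40.0 and 40.9 CPM in WT and at 36.2, 36.4 and 31.4 in cKO. The lowest WT library and the highest cKO library nearly met (-0.18 ± 0.08, SE, adjusted p = 0.148). Ccna2, cyclin A2, was at 48.2, 49.8 and 49.0 CPM in WT and at 45.6, 47.0 and 41.1 in cKO (adjusted p = 0.188). Ccnb2, cyclin B2, was at 23.6 ± 1.83 CPM in WT and 22.1 ± 0.425 in cKO (SD, n = 3 each).

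Plk1, the polo-like kinase of mitotic entry, was at 16.9, 17.6 and 18.0 CPM in WT and at 15.6, 17.4 and 12.3 in cKO (-0.21 ± 0.11, adjusted p = 0.245). Its low cKO mean came mainly from cKO 37. Cdc25b, a phosphatase that activates Cdk1, was at 37.1, 39.0 and 36.7 CPM in WT and at 46.8, 44.4 and 37.1 in cKO. Here cKO 8 and cKO 10 were above every WT library and cKO 37 was among them (0.18 ± 0.08, adjusted p = 0.166). Without cKO 37 Cdc25b passed as higher. The related phosphatase Cdc25c and the centrosomal kinase Nek2 had differences of -0.05 and 0.06.

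Of 6 genes of the spindle checkpoint and the APC/C, 2 fell and 4 did not pass (33.3% called against 12.4% of all tested genes). Ube2c, the ubiquitin-conjugating enzyme that starts chains on APC/C substrates, was at 17.1, 16.7 and 16.3 CPM in WT and at 13.5, 14 and 13.7 in cKO. The groups were 1.21-fold apart with little spread in either (-0.28 ± 0.07, adjusted p = 0.0308). Bub1b, which encodes the checkpoint protein BubR1, was at 30.0, 30.0 and 30.3 CPM in WT and at 25.5, 26.4 and 25.6 in cKO (-0.22 ± 0.06, adjusted p = 0.0305). For both, cKO 37 lay between or beside the other cKO libraries. Without it the difference was -0.28 for Ube2c (adjusted p = 0.0413) and -0.22 for Bub1b, which then missed the threshold (0.0518). Cdc20, the APC/C activator held by the checkpoint, was at 27, 32.9 and 31.2 CPM in WT and at 27.1, 29.2 and 24.6 in cKO, so the groups overlap (adjusted p = 0.225). The checkpoint kinases Bub1 and Ttk and the inhibitor Mad2l1 had differences of -0.14, -0.09 and 0.03.

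None of the 5 centromere and kinetochore genes passed with edgeR, against 12.4% of all tested genes. Of the 5, 2 had an unadjusted p under 0.05, against 29.1% of all tested genes. Cenpa, the histone variant that marks the centromere, was at 24.1, 26.0 and 24.4 CPM in WT and at 23.2, 22.9 and 24.1 in cKO (-0.09 ± 0.06, adjusted p = 0.401). Ndc80 and Nuf2 encode the paired subunits that grip the microtubule, and their values differed in sign. Nuf2 was at 19.4, 17.2 and 16.6 CPM in WT and at 14.4, 15.9 and 14.3 in cKO (-0.25 ± 0.09, adjusted p = 0.0719). Ndc80 was at 9.77 ± 0.772 CPM in WT and 10.35 ± 1.11 in cKO (0.08 ± 0.11, SD and SE respectively, n = 3 each). The difference between the pair was not tested. Cenpe, a kinetochore motor, and Cenpf had differences of 0.16 and 0.07.

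The chromosomal passenger complex corrects faulty attachments, with Aurkb as its kinase, Incenp as its scaffold and Birc5 (survivin) and Cdca8 (borealin) as its targeting subunits. None of the 4 passed with edgeR, against 12.4% of all tested genes. Of the 4, 1 had an unadjusted p under 0.05, against 29.1% of all tested genes. Cdca8 was at 19.3, 19.4 and 20.7 CPM in WT and at 17.4, 18.6 and 12.6 in cKO (-0.29 ± 0.13, adjusted p = 0.167). Incenp was at 43.4, 46.1 and 49.3 CPM in WT and at 44.9, 44.4 and 34.4 in cKO (-0.17 ± 0.10, adjusted p = 0.31). Aurkb was at 17.4, 18.5 and 19.7 CPM in WT and at 20.7, 19.7 and 14.7 in cKO. In this complex cKO 37 was the lowest library for those 3 genes, and the mean over the 4, relative to each gene's mean over all libraries, was -0.31 there. It was 0.03 and 0.06 in cKO 8 and cKO 10. Birc5, by contrast, was at 25.7, 27.7 and 27.3 CPM in WT and at 24.7, 26.7 and 24.8 in cKO.

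Of 11 genes of spindle assembly and microtubules, 1 fell and 10 did not pass (9.09% called against 12.4% of all tested genes). Tpx2, which activates Aurora A and nucleates spindle microtubules, was at 41.9, 40.9 and 41.7 CPM in WT and at 35.1, 38.1 and 33.3 in cKO (-0.22 ± 0.06, adjusted p = 0.0446). Without cKO 37 the difference was -0.18 (adjusted p = 0.086). Its partner Aurka was at 11.4, 13.7 and 13.3 CPM in WT and at 13.3, 11.9 and 10.7 in cKO (-0.10 ± 0.11), and whether the pair differed in response was not tested. Ckap5, a microtubule polymerase, was at 92.5, 85.0 and 89.9 CPM in WT and at 82.6, 81.5 and 84.2 in cKO (-0.11 ± 0.06, adjusted p = 0.248). Tacc3, which binds Ckap5, was at 38.4 ± 0.631 CPM in WT and 37.05 ± 4.56 in cKO (SD, n = 3 each). The depolymerising motor Kif2c (0.20), Ckap2 (0.17) and Dlgap5 (0.13) lay on the other side, with adjusted p from 0.123 to 0.373. The remaining 5, among them the bipolar motor Kif11, were between -0.10 and -0.01, with Aurka at the lower end.

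Central spindle and cytokinesis genes divided in direction, with 2 of 8 lower, 1 higher and 5 that did not pass. The share called was 37.5% against 12.4% of all tested genes. Prc1, which bundles the antiparallel microtubules of the central spindle, was at 47.3, 45.6 and 44.9 CPM in WT and at 39.9, 41.5 and 37.1 in cKO (-0.22 ± 0.06, adjusted p = 0.044). Anln, the anillin scaffold of the contractile ring, was at 45.8, 38.0 and 44.5 CPM in WT and at 35.7, 37.0 and 34.5 in cKO (-0.26 ± 0.08, adjusted p = 0.0461). The groups of Anln nearly touched, at WT 27 and cKO 10. Gas2l3, which links actin and microtubules at division, went the other way, from 19.5, 20.6 and 21.1 CPM in WT to 25.1, 22.5 and 25.1 in cKO (0.25 ± 0.07, adjusted p = 0.0457). All 3 calls were lost without cKO 37 (adjusted p = 0.0773, 0.0846 and 0.0981 in that order). Anln was also lost with limma voom (0.0627), and Anln, Prc1 and Tpx2 with upper-quartile scaling (0.0645, 0.0685 and 0.067) and without robust estimation (0.0583, 0.0511 and 0.0517). Gas2l3 was also lost with limma voom (0.0555) and with a GC and length offset in the fit (0.255, at 0.12). Racgap1, part of the centralspindlin complex, was at 54.5, 52.9 and 54.6 CPM in WT and at 49.1, 51.4 and 41 in cKO (-0.20 ± 0.08, adjusted p = 0.133). Its centralspindlin partner Kif23 had a difference of -0.11, and the exchange factor Ect2, which they recruit, -0.13. The motors Kif20a and Kif20b were at -0.05 and 0.08.

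Chromosome structure and lamina genes all lay below 0 and 1 of 6 passed (16.7% against 12.4% of all tested genes). Lmnb1, lamin B1 of the nuclear envelope, was at 60.2, 63.4 and 66.0 CPM in WT and at 51.3, 53.6 and 46.8 in cKO. The groups were 1.25-fold apart (-0.32 ± 0.07, adjusted p = 0.0144), and without cKO 37 the difference was -0.27 (0.0184). It missed the threshold without WT 29 (0.064) or cKO 8 (0.0559). Top2a, the topoisomerase that untangles sister chromatids, was at 147, 131 and 143 CPM in WT and at 125, 124 and 116 in cKO (-0.21 ± 0.07, adjusted p = 0.0563). It passed with DESeq2 (0.0291), without the low-count filter (0.0476), with the GC and length offset (0.00801) and without WT 27 (0.0474). Mki67, the proliferation marker Ki-67, was at 170, 164 and 183 CPM in WT and at 174, 176 and 146 in cKO. Only cKO 37 was outside the WT range (-0.06 ± 0.08, interval -0.24 to 0.11). The condensin genes Smc2 (-0.17), Smc4 (-0.06) and Ncapd2 (-0.16) did not pass. Ncapd2 was at 83.9, 89.0 and 90.5 CPM in WT and at 85.8, 86.2 and 63.6 in cKO.

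**Figure D4:**
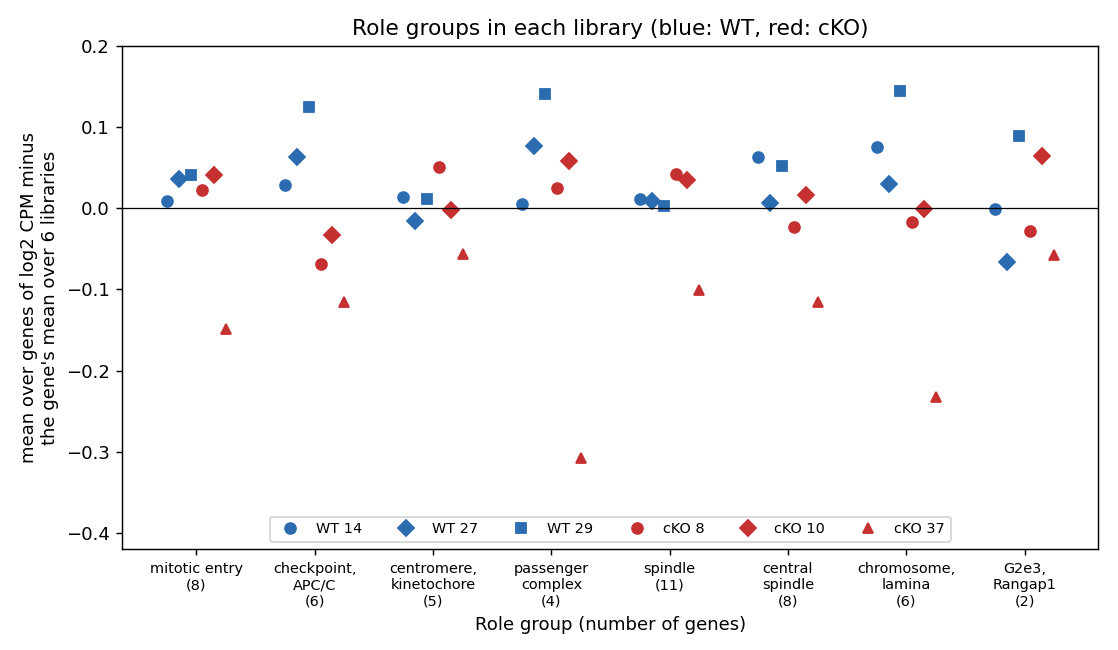
Mean over the genes of each role group of log2 CPM minus the gene's mean over 6 libraries, in each library (blue WT, red cKO). The triangle of cKO 37 is the lowest point in 7 groups and reaches -0.31 in the passenger complex, whereas the checkpoint and APC/C group and the chromosome structure group each have all 3 cKO below all 3 WT libraries.

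The largest differences of the 50 were in Rangap1 and G2e3. Rangap1, which stimulates the GTPase Ran and sits at nuclear pores and mitotic kinetochores, was at 63.5, 61.1 and 63.6 CPM in WT and at 45.1, 49.9 and 42.9 in cKO. The level was 1.37-fold lower in cKO, with no overlap between the groups (-0.45 ± 0.07, adjusted p = 0.0037). Its gene lies on chromosome 15 from 81704248 to 81729919 (mm10). G2e3, a ubiquitin ligase named for its expression in G2, was at 19.2, 18.2 and 21.7 CPM in WT and at 26.0, 26.7 and 26.3 in cKO, 1.34-fold higher (0.42 ± 0.08, adjusted p = 0.00761). Its gene lies on chromosome 12 from 51348230 to 51376986. Both passed without any single library and under every other alternative but the test against a fold of 1.2. Without cKO 37 the differences were -0.41 and 0.42, with adjusted p = 0.00482 and 0.0146. With the GC and length offset G2e3 fell to 0.27 (adjusted p = 0.0271). Its transcript has the lowest GC content of the 50, 37.9%.

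**Figure D5:**
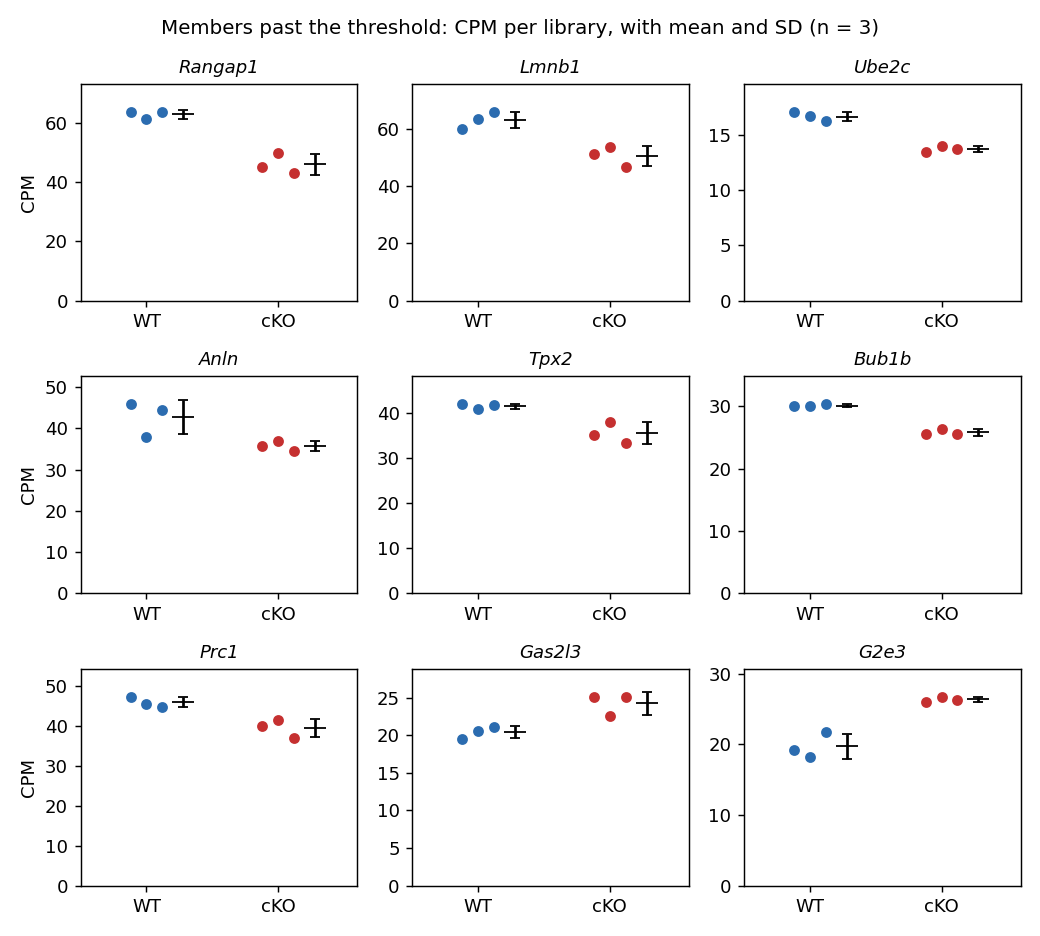
CPM of the 9 genes past the threshold in each library (points, blue WT and red cKO), with the mean and SD of each group (black, n = 3), on axes that start at 0. In each panel the groups do not overlap, and the fold difference is largest in Rangap1 (1.37-fold) and G2e3 (1.34-fold).

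Levels per length were compared with the deposited RPKM values (reads scaled by gene model length and library depth). Means over 6 libraries ran from 2.08 for Ttk to 18.7 for Top2a, an 8.99-fold range, with a median of 6.38. After Top2a came Lmnb1 (14.9), Smc4 (13.9), Ncapd2 (13.7), Rangap1 (13.5) and Cenpa (13.5). Both genes that rose were among the scarcest, Gas2l3 at 2.47 and G2e3 at 2.55 RPKM. Those that fell lay between 5.39 (Anln) and 14.9 (Lmnb1). Mki67, the most abundant by CPM, was at 12.7 ± 0.497 RPKM in WT and 12.2 ± 1.17 in cKO (SD, n = 3 each), since its gene model is 10075 bases long. Per RPKM, Ccnb2 (11.05) exceeded Ccnb1 (8.25), and Cdk1 stood at 9.61.

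Across the members, genes of higher GC content had lower fold changes (Spearman rho -0.309 over 50 genes, which share libraries), as they did over 15843 tested genes (-0.262). The rho with gene model length was 0.142 against 0.044. With an offset for both, 12 members fell and 1 rose, beside 9.01% and 4.45% of all genes, and the 5 that joined were Bub1, Nuf2, Ckap5, Top2a and Smc2. Under that offset the members' median was -0.14, with 41 of 50 below 0, and the median of all genes moved to -0.03. The members' GC content ran from 37.9% to 56%, with a median of 46.3% against 49.9%.

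Among 138 other genes of the same programme, 13 fell, 3 rose and 122 did not pass, with a median of -0.03. These 16 make up 11.6%, near the 12.4% of all tested genes, so with both directions together the list was not called more often than other genes. By direction, 13 of 138 were lower against 6.45% of all tested genes, and 3 of 138 higher against 5.96%. In the Ran cycle, which guides spindle assembly and nuclear transport, 4 of 7 genes fell (57.1% against 12.4%) and 3 did not pass. Ran itself was at 128, 121 and 130 CPM in WT and at 97.4, 103 and 99.7 in cKO (-0.34 ± 0.06, adjusted p = 0.0067). Its exchange factor Rcc1 was at 30.8, 30.4 and 33.1 CPM in WT and at 24.2, 25.8 and 23.4 in cKO (-0.36 ± 0.07, adjusted p = 0.00771). Kpnb1, importin beta, was at -0.36 (adjusted p = 0.00665) and Ranbp1, a Ran-binding cofactor, at -0.27 (adjusted p = 0.0151). Ran, Rcc1 and Kpnb1 passed without any single library. Ranbp2, by contrast, was at 0.14 and did not pass. In the APC/C list 4 of 17 fell (23.5% called against 12.4%). Ube2s, which extends the chains that Ube2c starts, was lower by the widest margin, 77.7 against 56.3 CPM (-0.47 ± 0.05, adjusted p = 0.00154). The subunit gene Anapc15, listed under its older symbol 3200002M19Rik, fell by 0.35, and Anapc11 and Cdc16 fell by 0.22 and 0.19. Anapc15 missed the threshold without WT 27, WT 29, cKO 8 or cKO 10.

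Of 24 factors that transcribe or repress G2/M genes, 2 rose, 1 fell and 21 did not pass, which is 12.5% called against 12.4% of all genes. Tfdp2, a dimer partner of E2F factors, rose from 27.8 to 41.1 CPM (0.56 ± 0.06, adjusted p = 0.00101) and passed under every alternative run. Rbl2, the pocket protein p130 of the repressive DREAM complex, rose by 0.29 (adjusted p = 0.0153), a call lost without WT 27 (0.0535) or cKO 8 (0.0743). Nfya, the subunit of NF-Y that contacts CCAAT, fell by 0.37 (adjusted p = 0.013), a call lost without cKO 8 (0.0623). Foxm1 was at 43.1, 43.8 and 44.5 CPM in WT and at 39.4, 42.8 and 30.3 in cKO, again lowest in cKO 37, and Mybl2 at 17.2, 19.2 and 20.3 against 15.8, 17.4 and 13.8. Neither passed.

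Elsewhere in the programme, 1 of 11 Cdk1 regulators fell (Cdc25a, -0.28) and 2 of 37 other centromere, kinetochore and checkpoint genes fell (Mad1l1, -0.25, and Bub3, -0.21). Of 12 cohesin genes 1 fell (Pds5a, -0.24). Of 5 further condensin genes 0 passed with edgeR (3 at an unadjusted p under 0.05, against 29.1% of all tested genes). Of 25 other motor, spindle and cytokinesis genes, Aspm, a spindle pole protein, rose by 0.32 (adjusted p = 0.013) and 24 did not pass. The shares called in these lists ran from 0% to 9.09%, against 12.4% of all tested genes. The call of Aspm was lost without WT 29 (0.0593) or cKO 8 (0.067). Cdc25a, Mad1l1, Bub3, Pds5a and Anapc11 each missed the threshold when any of at least 5 of the 6 libraries was left out. Replication genes, from a list that earlier results of these data already showed lower, had 8 of 23 lower and 0 higher. The share lower was 34.8% against 6.45% of all tested genes. Mcm2, of the replicative helicase, was at 48.7 ± 2.20 CPM in WT and 34.15 ± 3.94 in cKO (SD, n = 3 each). Of 7 CDK inhibitor genes 1 rose and 2 fell, which is 42.9% called against 12.4% of all tested genes. Cdkn2a rose from 0.628 CPM in WT to 2.56 in cKO (2.02 ± 0.28, SE, adjusted p = 0.00284). Those that fell were Cdkn1a (-0.21, adjusted p = 0.04345) and Cdkn1c (-0.25, adjusted p = 0.0466).

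Dividing cells of other lineages could carry the same genes, so their markers were read in each library. Granulocyte markers summed to 1.91 to 2.95 CPM in WT and 1.29 to 2.83 in cKO, and erythroid markers to 32.1 to 52.5 and 40 to 62.8. For B lineage markers the sums were 18.6 to 28.6 CPM and 23.9 to 25.6. Endothelial markers summed to 461 to 512 CPM in WT and 473 to 583 in cKO. In these 4 lists 0 genes passed in either direction with edgeR, against 12.4% of all tested genes. Hba-a2, Hbb-b1, Ngp and Pecam1 had an unadjusted p under 0.05, as did 29.1% of all tested genes. Osteoclast and macrophage markers summed to 3270 to 4620 CPM in WT and 2630 to 3280 in cKO, with 2 of 10 lower (Acp5 and Csf1r), 10 of 10 below 0 and a median of -0.45. Over all tested genes 6.45% were lower, 48.7% lay below 0 and the median was 0.01. Neural markers summed to 12.9 to 14.7 CPM in WT and 9.61 to 12.8 in cKO. Of 3 tested 1 fell (Tubb3, -0.77, adjusted p = 0.0131), against 6.45% of all tested genes. The others tested lay above 0 and did not pass (Stmn2, 0.28, and Snap25, 0.71), so the neural list had a median of 0.28. Skeletal muscle markers summed to 3.74 to 4.87 CPM and 3.8 to 5.14, and epidermal ones to 3.25 to 4.58 and 2.42 to 3.74. For the osteoclast, macrophage and neural markers, their part in the members' differences was not tested.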

How the data were processed

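RNA-seq libraries of 3 WT and 3 cKO calvaria were used. Per the submitters' processing notes, bcl2fastq, TopHat2 2.0.6 and HTSeq were used with the mm10 build. The annotation, the parameters and whether strand was used were not given in the sources used here. The authors deposited a count per gene and library, and RPKM values beside it. All deposited counts are even numbers, so halved counts were an alternative. Genes were kept with filterByExpr (minimum count 10), scaled with TMM (factors 0.952 to 1.07) and tested with edgeR 4.0.16 in R 4.3.3 (robust quasi-likelihood, 2 groups, no covariate), with Benjamini-Hochberg adjustment. RPKM served only to compare levels between genes. The SE and 95% intervals come from that fit. Alternatives were other scalings, filters and thresholds, a fit without robust estimation, a GC and length offset, DESeq2 1.42.0, limma 3.58.1 voom, a test against a fold of 1.2 (glmTreat), and each library left out. The procedure was tested on simulated data.

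Values were given for called genes, the 2 most abundant by RPKM in each role, Cdk1, Ccnb1, Mki67 and Top2a. Other genes were named for their roles after their values were seen. The members and lists were chosen with earlier results of these data known. Depth was 60449016 to 95439578 counts per library. A planned search for a protein motif was not run. Overlapping genes cannot be separated without strand, which touches Ccna2, Cdc20, Nusap1 and Kif20a.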

Additional observations from a re-analysis of the deposited data

How the results depend on the processing

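No paired analysis was run, because the labels give no litter or pairing of libraries. What the numbers in the labels stand for (14, 27 and 29 against 8, 10 and 37) is not stated. The 9 called members kept their direction in all 18 alternatives. Of uncalled members, sign was followed only for the 2 most abundant in each role and for Cdk1, Ccnb1, Mki67 and Top2a. Among these, Ccnb1, Mki67 and Tacc3 changed sign in at least 1 alternative. Other uncalled members changed sign too, since 34 of 50 lay below 0 with upper-quartile scaling in place of 38. In place of 7 lower members there were 4 with upper-quartile scaling, 4 without robust estimation, 12 with the GC and length offset, and 0 in the edgeR glmTreat test against a fold of 1.2, where 2 had an unadjusted p under 0.05. In place of 2 higher members there was 1 with the offset, 1 with limma voom and 0 in the glmTreat test. DESeq2 gave 8 lower and 2 higher, and limma voom 6 lower. Over all genes the 959 higher and 1038 lower calls became 1191 and 764 with upper-quartile scaling and 716 and 1450 with the offset. Among other G2/M genes, the 13 lower became 8 with upper-quartile scaling, 27 with the offset, 26 at an adjusted p of 0.1 and 1 in the glmTreat test. The 3 higher became 7 at an adjusted p of 0.1 and 1 in the glmTreat test. With each library left out in turn, lower members numbered 1 to 4 and higher members 1 to 2. Other lower G2/M genes numbered 5 to 12 and other higher ones 1 to 7. Of all genes 1.81% to 6.48% were then lower and 1.78% to 5.73% higher, with fewer samples tested. For the other settings the cause was not tested.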
